A study of Prunus yedoensis with 90 samples.

Results

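In buds of the Yoshino cherry 'Somei-yoshino', 200 genes were selected for a mean level in April that stood well above every other sampled month. A gene entered when its mean log2(TPM + 1) over the 4 April bud libraries exceeded its highest monthly mean from June to March by at least 1, and when that highest month was February, March or June. TPM is a level per transcript length and per library total. Of 95076 gene IDs in the deposited table, 40161 had a mean of at least 1 TPM over the 66 bud libraries, 293 of these (0.730%) rose by at least 1 into April, and 229 met the condition on the month. The 200 with the largest rise were taken. April against the other months is therefore a description of the selection and carries no test.

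The trees were sampled outdoors, untreated, from June 2018 to April 2019, with 2 trees at each of 3 sites in Japan. From south to north these are Fukuoka, Tsukuba and Hokkaido, the last in Sapporo. Each tree has its own label and was sampled again at each date, so the 2 libraries of a site and date come from separate trees of 1 cultivar. Whole apical buds were collected on 11 dates a site, and leaves on 4 dates a site from June to early September, giving 66 bud and 24 leaf libraries of total RNA. April buds exist for Tsukuba on 4 April and for Hokkaido on 8 April 2019. The April mean thus covers 2 sites while the other monthly means cover 3, and May was not sampled. The last Fukuoka buds were taken on 13 March 2019, and those of the northern sites before April on 6 March at Tsukuba and 7 March at Hokkaido. The files pair no ID with a gene name, so each gene is given by its ID and no function is stated. Library totals are all 1000000 TPM, and read depth is unknown.

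Flowering buds of cherries are formed in summer, enter dormancy in autumn and need a long period of cold before warmth can open them. Between the end of dormancy and flowering, the organs already laid down in the bud complete pollen and ovule development, the petals and stalks expand, and the scales open. Buds of trees in warmer places reach these stages on earlier dates. Because whole buds were sampled, a gene's rise can come from more cells of a type or from more RNA per cell, and these cannot be told apart here.

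The 200 genes were at low levels in midwinter and far higher in spring. Their summed level was 647 ± 128 TPM in January (SD, n = 6 libraries), 1025 ± 208 in February, 5048 ± 2817 in March and 16280 ± 2136 in April (n = 4). In April the libraries stood at 14591 and 16383 TPM at Tsukuba and at 14886 and 19260 at Hokkaido. The other 62 bud libraries lay between 525 and 9545 TPM, and the highest of these were the 2 Fukuoka libraries of 13 March, with 7238 and 9545. All 4 April libraries were thus above all 62 others in this sum, and Fukuoka in March came next.

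Per gene the course was less uniform, with wide differences in level. In January 20 of the 200 genes were listed at 0 in all 6 bud libraries, and 102 were below 1 TPM in all 6. The mean April level ranged from 4.49 to 2000 TPM with a median of 28.1, and 36 genes had a mean of at least 100 TPM. In 41 genes all 4 April libraries were above each of the other 62. The highest library outside April was a Fukuoka library of 13 March for 125 genes, a Hokkaido library of June for 31, and another library for 44.

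**Figure D1:**
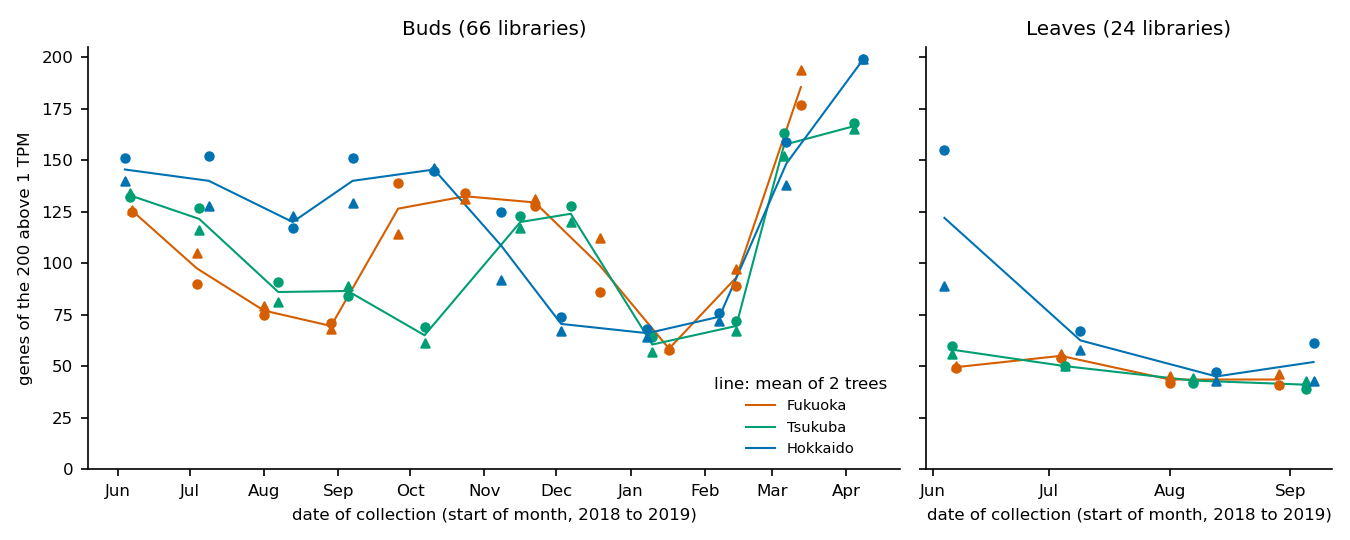
Number of the 200 genes above 1 TPM (vertical axis) in each bud library (left) and leaf library (right) by date of collection; circles are replicate 1 and triangles replicate 2 of a site, and lines join the means of the 2 trees. In April 199 of the genes were above 1 TPM in both Hokkaido libraries but only 168 and 165 at Tsukuba, and in leaves replicate 1 of Hokkaido in June, with 155, stands above the rest.

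The course over the year was not flat before spring, as the plot of genes above 1 TPM by date shows. At Fukuoka the median level of the 200 genes was 0.58 and 0.59 TPM on 1 August, 2.19 and 1.58 on 26 September and 0.25 and 0.29 on 17 January. At Hokkaido it was 3.53 and 4.02 TPM on 11 October and 0.64 and 0.31 on 3 December. At Tsukuba it was 0.36 and 0.30 TPM on 7 October, 1.86 and 1.72 on 16 November and 0.48 and 0.36 on 10 January. An autumn bump in the low range of the genes is therefore seen at each site, with its dates differing between sites. The 2 Fukuoka libraries of 29 August, which the selection left out, had medians of 0.55 and 0.47 TPM.

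The highest month before April was March for 152 genes, June for 45 and February for 3. The rise above that month ranged from 1.04 to 3.76 on the log2(TPM + 1) scale with a median of 1.34, and 32 genes rose by at least 2. Over all 40161 bud genes the median of the same difference was −0.55. The largest rise belonged to CYE_r3.1SPE5_g004410.1, at 180 and 176 TPM in the Tsukuba April buds, 12.3 and 6.48 in those of Hokkaido, and 8.73 and 18.0 at Fukuoka in March. CYE_r3.1SPA0_g154130.1 had the next largest, with 28.0 and 42.0 TPM at Tsukuba and 21.6 and 19.8 at Hokkaido, against at most 4.81 in the other 62 buds. In the first of these genes April differed widely between the sites, while in the second the ranges lay close together.

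The limit of 200 falls where values are dense. CYE_r3.1SPE4_g020100.1, the last gene inside, rose by 1.0425 and had 23.8 and 24.7 TPM at Tsukuba and 40.7 and 29.8 at Hokkaido in April. CYE_r3.1SPA4_g027830.1, the first outside, rose by 1.0408 and had 9.67 and 7.95 TPM at Tsukuba and 7.90 and 6.66 at Hokkaido. In all, 29 genes beyond the 200 met every condition except the rank.

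**Figure D2:**
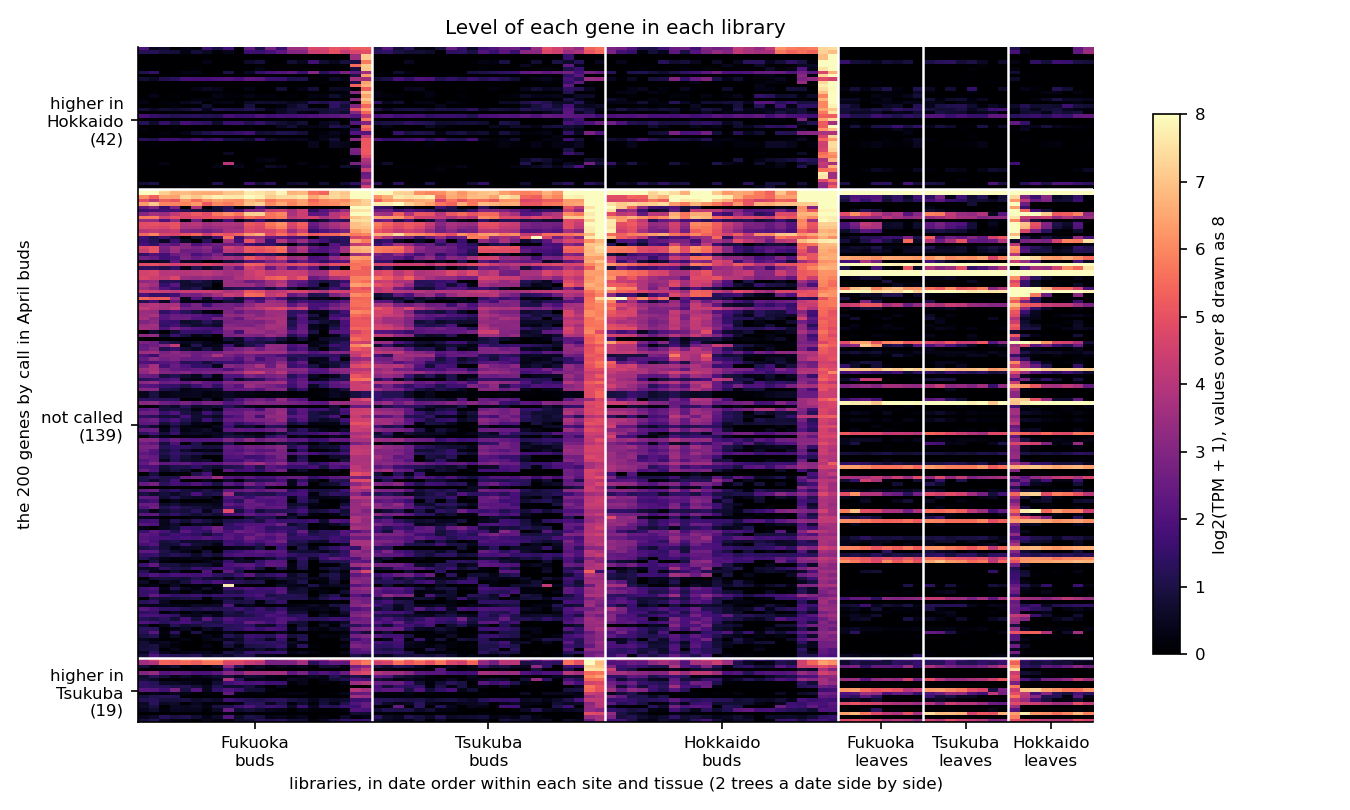
Level of each of the 200 genes (horizontal lines of the map) in each of the 90 libraries (columns) as log2(TPM + 1), grouped by the call between the April buds of Tsukuba and Hokkaido, with libraries in date order within a site and tissue. Of the 42 genes higher in Hokkaido 32 were below 1 TPM in both Tsukuba April columns and bright in the last Hokkaido columns, while the 139 not called brighten in the last columns of every site.

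The 2 April collections did not hold the same set of active genes. Differences between groups were tested with limma on log2(TPM + 1), over all genes with a mean of at least 1 TPM in the fitted libraries. A gene was called when the Benjamini-Hochberg adjusted p was under 0.05 and the change at least 1. Between Tsukuba and Hokkaido in April, 61 of the 200 genes were called, 19 higher at Tsukuba and 42 higher at Hokkaido, whereas of all 40161 bud genes 2.16% were called, 1.03% higher at Tsukuba and 1.13% higher at Hokkaido. The selection used the mean of the 4 libraries, through which a gene high at 1 site can enter. The number of differing genes is therefore affected by the choice of genes. Their direction varied with the month condition. Of the 152 genes highest in March 13 were higher at Tsukuba and 40 at Hokkaido, against 6 and 0 of the 45 highest in June. The direction in the 64 genes left out for another highest month was not examined. Among the 164 genes that pass the filter without the April libraries, 11 were higher at Tsukuba and 25 at Hokkaido. With a pseudocount of 0.1 the split was 9 against 35, and without Tsukuba replicate 2 it was 9 against 39. Each site has 1 April library in each of 2 series of library numbers. In all 61 genes the sites did not overlap, so the direction was the same within both series. This adds little to the calls, as the sites also did not overlap in 109 of the 139 genes not called. The share over all bud genes was not counted.

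The 42 genes higher at Hokkaido were mostly silent at Tsukuba. Their levels ran from 7.59 to 320.5 TPM (median 57.6) in Hokkaido replicate 1 and from 10.4 to 1025 (median 152) in replicate 2. At Tsukuba they ran from 0 to 39.8 TPM in replicate 1 and from 0 to 47.8 in replicate 2, with a median of 0 in both. Of the 42, 21 were listed at 0 and 32 were below 1 TPM in both Tsukuba April buds, and none was at 0 in a Hokkaido April bud. No Tsukuba bud of any date held more than 3.94 TPM of any of these 32 genes, and for 21 of the 32 the highest Tsukuba bud was that of 6 March. At Tsukuba, therefore, no collection caught these 32 genes at a high level, and what happened between 6 March and 4 April was not sampled.

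CYE_r3.1SPA0_g029150.1 is the extreme case. It was listed at 0 in both Tsukuba April buds and had 121 and 1025 TPM at Hokkaido (adjusted p = 3.3e-13, limma). The spread behind this p-value is shared over all 33 groups, in most of which the gene was listed at 0. The 2 Hokkaido April trees alone differed by 3.07 on the log2 scale. Outside April the gene had 10.5 and 139 TPM at Fukuoka on 13 March and 2.01 in 1 Tsukuba bud of 6 March. It was listed at 0 in every other bud and in all 24 leaves. CYE_r3.1SPE4_g001280.1 followed it within 0.02 on the log2 scale in all 90 libraries, so reads of these 2 IDs may have been shared between near-identical copies, and they are not independent examples.

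Within a site, the 2 trees often stood apart in these 42 genes. In the Hokkaido April buds 21 of the 42 were higher in replicate 2 than in replicate 1 by at least 1 on the log2 scale, 3 were lower by at least 1, and the differences ranged from −4.27 to 3.07. Of the other 158 genes 2 were higher in replicate 2 by that much and 0 were lower, and of all bud genes 1.07% were higher. At Fukuoka on 13 March 36 of the 42 were higher in replicate 2 by at least 1 and none was lower, against 2 of the other 158 and 0.762% of all bud genes. Their median there was 1.38 TPM in replicate 1 and 35.7 TPM in replicate 2. All 21 genes that were higher in Hokkaido replicate 2 were also higher in Fukuoka replicate 2 by at least 1, as were 2 of the 3 that were lower in Hokkaido replicate 2. Trees of the 2 sites share a replicate number only by name. The 2 Fukuoka libraries come from 1 series of library numbers and the 2 Hokkaido libraries from different series.

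**Figure D3:**
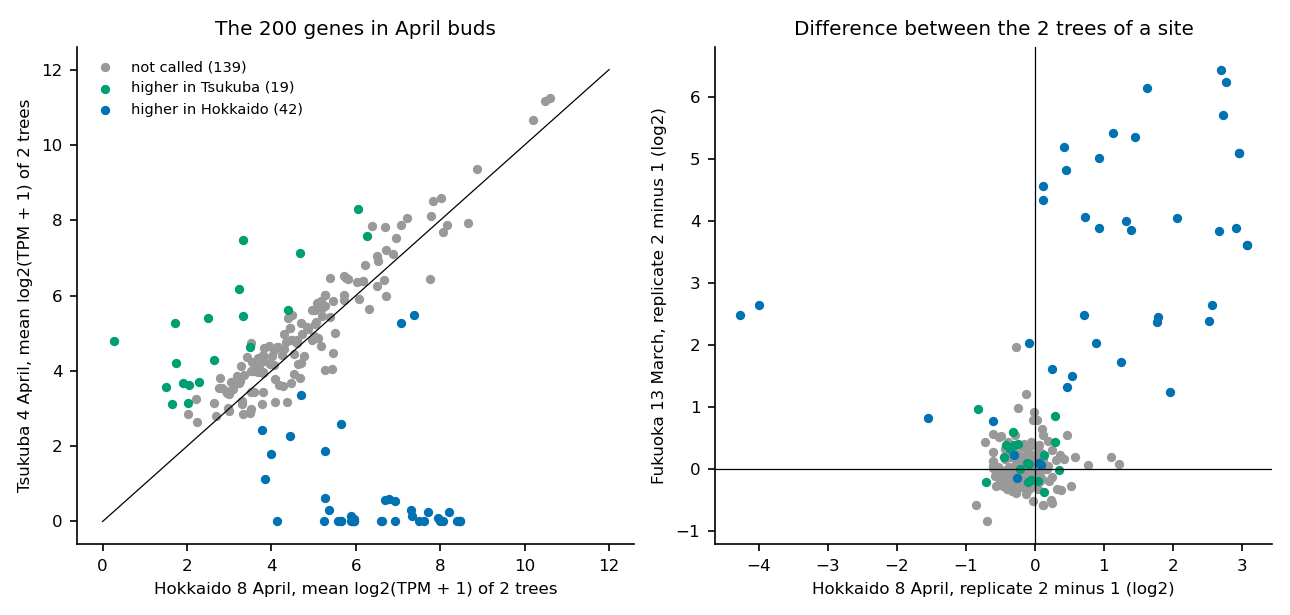
Left, mean log2(TPM + 1) of 2 trees at Tsukuba on 4 April (vertical) against Hokkaido on 8 April (horizontal) for the 200 genes, coloured by call, with the line of equal levels. Right, replicate 2 minus replicate 1 at Fukuoka on 13 March (vertical) against the same difference at Hokkaido on 8 April (horizontal), both in log2(TPM + 1): the blue genes, higher at Hokkaido, spread up to 3.07 at Hokkaido while most others gather near 0.

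Of the 19 genes higher at Tsukuba, 18 were above 1 TPM in both Hokkaido April buds as well. Their median level was 27.0 TPM at Tsukuba and 4.62 at Hokkaido. CYE_r3.1SPE8_g024460.1 had 28.5 and 25.5 TPM at Tsukuba and 0.0697 and 0.366 at Hokkaido. It passed the filter only through the April libraries, with a mean of 0.217 TPM over the other 62 buds, so its call is a description. No other bud exceeded 8.97 TPM of it, yet every one of the 24 leaf libraries held between 12.1 and 207 TPM. CYE_r3.1SPE5_g004410.1, the gene with the largest rise, differed by 4.17 ± 0.54 on the log2 scale (SE, adjusted p = 1.4e-06).

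The 139 genes not called between the April sites had median levels of 24.2 TPM at Tsukuba and 21.6 at Hokkaido. Each site's own rise from March can be read beside this. At Tsukuba the change from March to April had a median of 1.75 over the 200 genes, with 168 positive and 28 negative. At Hokkaido it had a median of 1.97, with 198 positive and 2 negative. A rise in the mean of 4 April buds was thus not a rise at both sites for every gene.

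Fukuoka was sampled last on 13 March, and at that date its buds already carried much of the April set. Of the 200 genes, 130 were higher at Fukuoka than the mean of the northern sites in March and 0 lower, while of all bud genes 4.17% were called, 2.83% higher and 1.33% lower. The northern buds were taken earlier, on 6 and 7 March, so date and site cannot be told apart here either. The median difference was 1.48 over the 200 genes and −0.05 over all bud genes. In 131 genes both Fukuoka trees were above all 4 northern March libraries, a count that was not made over all bud genes. The March mean of a gene over all 6 trees took part in its selection, and high Fukuoka values can make March its highest month. The count is therefore affected by the choice of genes. Of the 152 genes highest in March 98 were higher at Fukuoka, of the 45 highest in June 32, and of the 3 highest in February 0. The median gene stood at 60.7% of its April mean TPM in Fukuoka in March, at 17.2% in Tsukuba and at 16.4% in Hokkaido, and 15 genes were at or above their April mean in Fukuoka.

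The March difference can be split by the class of the April comparison. It was called for 34 of the 42 genes higher at Hokkaido in April (median 2.32), for 88 of the 139 not called (median 1.43) and for 8 of the 19 higher at Tsukuba (median 0.61). The classes rest on April libraries, which this comparison does not use. In the 42 genes higher at Hokkaido the difference rests on Fukuoka replicate 2, which was above all 4 northern March libraries in 39 of them while replicate 1 was in 20. Without replicate 2, 14 of 41 tested were higher, with a median of 0.23, against 63 of the 139 not called, with a median of 1.39. Without replicate 1 the counts were 37 of the 42 and 66 of the 139. CYE_r3.1SPA1_g022160.1 had 40.4 and 102 TPM at Fukuoka on 13 March, 3.88 and 0 at Tsukuba on 6 March, and 0 in both Hokkaido buds of 7 March. Its difference was 5.46 ± 0.28 (adjusted p = 5.8e-17), and in April it reached 215 and 299 TPM at Hokkaido while both Tsukuba buds were listed at 0. CYE_r3.1SPE1_g026990.1 had 45.0 and 139 TPM at Fukuoka in March against 0.310 to 3.89 in the northern buds, a difference of 5.38 ± 0.27 (adjusted p = 5.8e-17). Both genes had a median of 0 TPM over the buds outside April. The spread behind these p-values is shared with the groups in which they were silent. Without Fukuoka replicate 2 the count of higher genes was 83 instead of 130, and with the libraries of 1 number series it was 100.

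**Figure D4:**
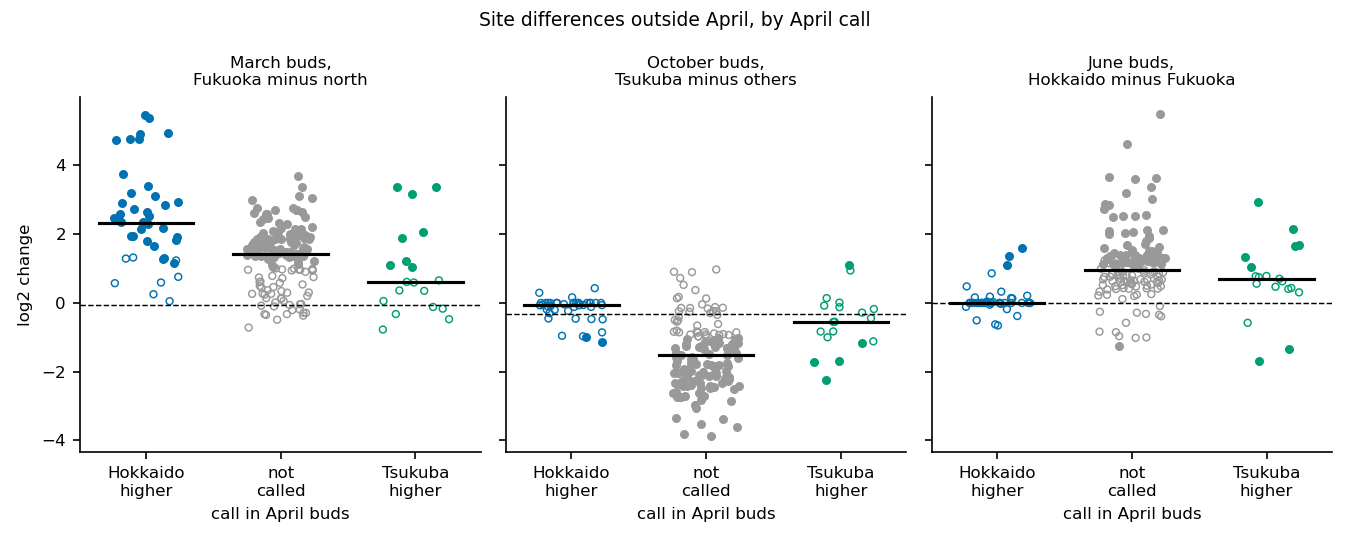
Difference between sites in log2(TPM + 1) for each of the 200 genes (points, filled where called) in March, October and June buds, split by the April call; bars are class medians and the dashed line the median of all bud genes. In March the medians are 2.32, 1.43 and 0.61 from left to right, the first carried by Fukuoka replicate 2. In October the 139 genes not called in April have a median of −1.51, while most of the 42 genes higher at Hokkaido in April were below 1 TPM in October and June and lie near 0 there.

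Between the northern sites in March there was no common direction. Of the 200 genes 34 were higher at Tsukuba and 33 higher at Hokkaido, whereas 3.48% and 1.59% of all bud genes were called in these directions and 5.07% in either. The median difference was 0.00 over the 200 genes. This split turned to 30 against 38 with median scaling, and without Tsukuba replicate 1 it was 5 against 27. Among the genes higher at Tsukuba, CYE_r3.1SPA4_g028740.1 had 35.7 and 23.7 TPM there and 6.93 and 2.63 at Hokkaido (2.49 ± 0.47, adjusted p = 0.00044). CYE_r3.1SPA3_g017380.1 had 10.6 and 9.50 TPM against 4.39 and 0.438 (1.99 ± 0.38, adjusted p = 0.00056), a call lost without Hokkaido replicate 2 (adjusted p = 0.082).

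The 2 named genes higher at Hokkaido in March were not called higher there in April. CYE_r3.1SPE0_g067770.1 had 20.5 and 19.9 TPM at Hokkaido and 2.39 and 2.09 at Tsukuba on the March dates (−2.71 ± 0.58, Tsukuba minus Hokkaido, adjusted p = 0.0017). In April it had 149 and 132 TPM at Tsukuba and 28.7 and 21.2 at Hokkaido, so the order of the sites was the opposite. CYE_r3.1SPE0_g030210.1 had 41.1 and 49.4 TPM at Hokkaido and 7.84 and 5.61 at Tsukuba in March (−2.59 ± 0.50, adjusted p = 0.00059). Its April levels lay within 113 to 140.

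The change from March to April differed between the sites in 70 genes, tested as an interaction. It was more upward at Tsukuba in 33 and at Hokkaido in 37, whereas 3.28% of all bud genes were called, 0.966% and 2.31% in these directions. CYE_r3.1SPE0_g067770.1 led the former with a difference of 5.17 ± 0.82 (adjusted p = 0.00010). CYE_r3.1SPE8_g024460.1 came next but passed the filter only through the libraries compared, so no test is given for it. CYE_r3.1SPA0_g029150.1 and its near-identical partner led the latter, as listed at 0 at Tsukuba in April. Of the 160 genes that pass the filter without the 8 libraries compared, 20 were called in each direction. A gene high at 1 April site can enter the selection through the April mean. The count of 70 genes is therefore affected by the choice of genes, as in the April comparison. The median over all bud genes was −0.06 and moved to 0.07 with median scaling, and the split was then 35 against 36. Without Tsukuba replicate 2 it was 12 against 31.

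A month before, on 7 to 14 February, few of the genes differed. Fukuoka was higher than the northern sites in 12 and lower in 4, against 1.86% and 1.81% of all bud genes in these directions and 3.67% in either. The median difference was 0.12 over the 200 genes and 0.10 over all bud genes, and under quantile normalization the counts were 5 and 4. Leaving out Fukuoka replicate 2 left 2 calls in all. CYE_r3.1SPA0_g068150.1 had 15.7 and 13.3 TPM at Fukuoka, 6.42 and 4.95 at Tsukuba and 2.07 and 1.63 at Hokkaido (1.83 ± 0.38, adjusted p = 0.00074). CYE_r3.1SPA6_g002090.1 had 11.9 and 16.7 TPM at Fukuoka and 3.40 to 6.43 in the north (adjusted p = 0.021).

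Among the genes lower at Fukuoka in February, CYE_r3.1SPA5_g015000.1 had 1.44 and 1.52 TPM there, 23.8 and 5.29 at Tsukuba and 49.0 and 37.7 at Hokkaido (−3.24 ± 0.91, adjusted p = 0.011). CYE_r3.1SPE7_g018150.1 had 1.15 and 1.46 TPM at Fukuoka and 3.62 to 18.7 in the north (−2.39 ± 0.63, adjusted p = 0.0073). In all 4 of these February genes the Fukuoka libraries lay outside the range of the northern ones, a condition for being named. Each call was lost in at least 1 fit without a Fukuoka tree, at adjusted p from 0.053 to 0.33.

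The Tsukuba buds of 7 October were low in these genes. Of the 200, 101 were lower there than the mean of Fukuoka on 24 October and Hokkaido on 11 October, and 1 was higher, while of all bud genes 13.1% were lower, 5.62% higher and 18.8% called in either direction. The median difference was −1.04 over the 200 genes and −0.33 over all bud genes, or −0.71 relative to the latter. Median scaling brought the median of all genes to 0.00 and the counts to 78 lower and 5 higher. The collection dates differ between the sites, and date and site cannot be told apart in this comparison.

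By April class, 95 of the 139 genes not called in April were lower at Tsukuba in October (median −1.51), against 2 of the 42 higher at Hokkaido (median −0.05) and 4 of the 19 higher at Tsukuba. Of the 42, 32 were below 1 TPM in all 6 October libraries, too low to be called lower, against 5 of the 139 and 6 of the 19, so the classes cannot be compared by these counts. CYE_r3.1SPE5_g018000.1 had 2.39 and 2.11 TPM at Tsukuba, 35.9 and 33.9 at Fukuoka and 71.4 and 51.6 at Hokkaido (−3.86 ± 0.37, adjusted p = 1.3e-10). CYE_r3.1SPA5_g017360.1, whose profile correlated with it at r = 0.995 over the 66 buds, had 2.86 and 1.37 TPM at Tsukuba and 29.9 to 63.4 elsewhere (−3.81 ± 0.36, adjusted p = 7.7e-11). The gene higher at Tsukuba was CYE_r3.1SPA0_g068150.1, with 36.9 and 63.9 TPM against 14.7 to 28.3 (1.12 ± 0.38, adjusted p = 0.012), a call lost without Tsukuba replicate 2 (adjusted p = 0.15).

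**Figure D5:**
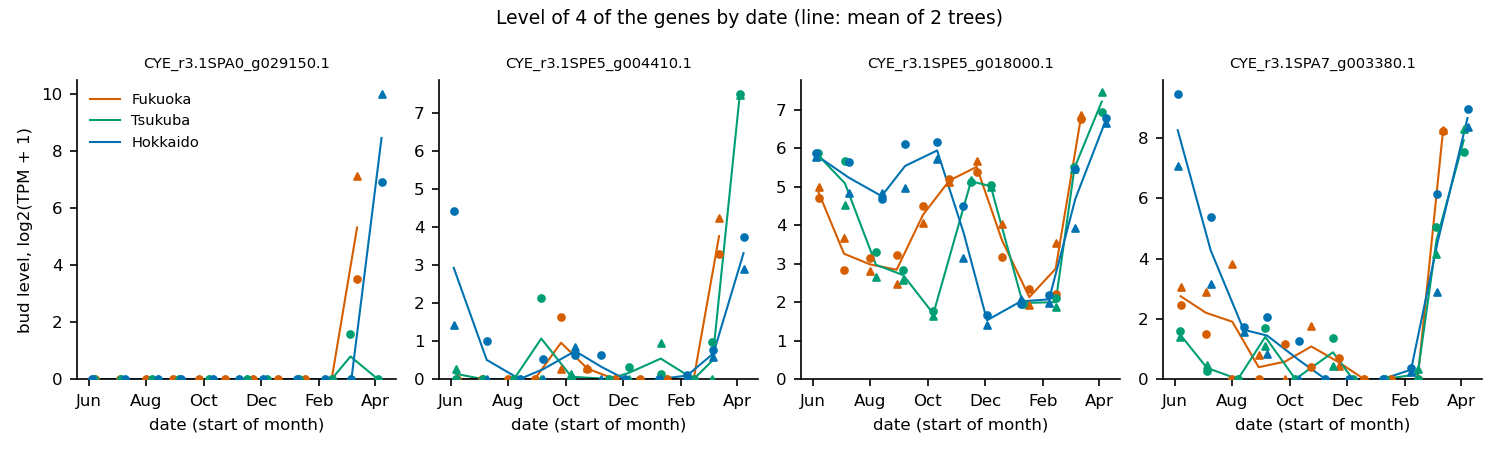
Level in buds as log2(TPM + 1) by date for 4 of the genes, with circles for replicate 1, triangles for replicate 2 and lines through the means of 2 trees. From left to right the panels show a gene listed at 0 until March and again at Tsukuba in April, the gene with the largest rise into April, a gene at 2.39 and 2.11 TPM in the Tsukuba October buds, and a gene at 701 and 133 TPM in the Hokkaido June buds.

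In June, at the other end of the sampled year, the buds of Hokkaido stood above those of Fukuoka. Of the 200 genes 72 were higher at Hokkaido and 3 lower, whereas of all bud genes 2.92% were higher, 4.43% lower and 7.36% called in either direction. The median difference was 0.75 against −0.01 over all bud genes. June levels, averaged over the trees of all sites, took part in the selection, so the count is affected by the choice of genes. Of the 45 genes highest in June 23 were higher at Hokkaido and 0 lower. Of the 152 highest in March 47 were higher and 3 lower, and of the 3 highest in February 2 were higher. Of the 139 genes not called in April 63 were higher, and of the 42 higher at Hokkaido in April 3 were. Of those 42, 33 were below 1 TPM in all 4 June libraries compared, too low to be called higher, against 5 of the 139. The classes therefore cannot be compared by these counts. CYE_r3.1SPA7_g003380.1 had 701 and 133 TPM at Hokkaido on 4 June and 4.45 and 7.30 at Fukuoka on 7 June (5.51 ± 0.82, adjusted p = 1.0e-05). CYE_r3.1SPA5_g015000.1 had 112 and 36.9 TPM against 2.17 and 1.18 (4.64 ± 1.05, adjusted p = 0.0016), a call lost without Hokkaido replicate 1 (adjusted p = 0.066).

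The neighbouring IDs CYE_r3.1SPA0_g068140.1 and CYE_r3.1SPA0_g068150.1 went the other way in June. The former had 2.97 and 3.30 TPM at Hokkaido and 10.9 and 13.7 at Fukuoka (−1.68 ± 0.39, adjusted p = 0.0022), and the latter 4.62 and 7.20 against 11.9 and 21.8 (−1.33 ± 0.43, adjusted p = 0.025). The groups did not overlap in either gene, a condition for being named, and both calls were lost without Fukuoka replicate 2. Hokkaido replicate 1 was the higher of the 2 June trees, with a summed level of 7229 against 4329 TPM, and without it 38 genes were higher in place of 72. Leaving out a Fukuoka tree gave 42 or 46 higher, and leaving out Hokkaido replicate 2, whose library number belongs to a later series, gave 84.

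In leaves, which the selection did not use, the genes ranged from silent to more abundant than in April buds. Of the 200, 34 were below 1 TPM in all 24 leaf libraries and 11 listed at 0 throughout, while 28 were above 1 TPM in all 24. The other 138 were above 1 TPM in some leaves and not in others. Of the 42 genes higher at Hokkaido in April, 29 were below 1 TPM in all leaves, against 5 of the 139 not called and 0 of the 19 higher at Tsukuba. The mean leaf level exceeded the mean April bud level in 23 genes. Chosen after its values were seen, CYE_r3.1SPE3_g018660.1 had the highest mean, 15879 TPM in leaves, 2000 in April buds and 241 in the other buds, and its partner CYE_r3.1SPA3_g018730.1 had 15544, 1868 and 224. The 5 genes highest in leaves made up 93.2% of the summed leaf level of the 200.

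Leaves of Hokkaido on 4 June stood apart from the other leaves, and their 2 trees from each other. Replicate 1 had 155 of the 200 genes above 1 TPM and replicate 2 had 89, against 39 to 67 in the other 22 leaf libraries. Replicate 1 was the highest leaf library for 122 of the 166 genes that exceeded 1 TPM in some leaf. By April class it held 131 of the 139 genes not called, all 19 higher at Tsukuba and 5 of the 42 higher at Hokkaido above 1 TPM. Over all IDs 35222 were above 1 TPM in that library, within the 33242 to 35300 of the other 22. Whether the tissue sampled differed in age or included other parts was not tested.

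Of the 200 genes 85 passed the filter of the leaf fit, and 55 of these passed it without the libraries compared between Hokkaido and Fukuoka in June. In that comparison 55 of the 85 were higher at Hokkaido and 0 lower, whereas of all leaf genes 8.33% were higher, 9.19% lower and 17.5% called. Among the 55 that pass without those libraries 25 were higher. Since genes could pass through the Hokkaido June leaves alone, the larger count is a description. Without Hokkaido replicate 1 it was 23. CYE_r3.1SPE7_g014790.1 had 487 and 315 TPM at Hokkaido and 0.0722 and 0.145 at Fukuoka (8.47 ± 0.83, adjusted p = 4.8e-06). CYE_r3.1SPA6_g039050.1 had 745 and 41.6 TPM against 0.0519 and 0.488, but a mean of 0.352 TPM over the other 20 leaves, so it passed the filter only through the libraries compared and no test is given.

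From the first to the last leaf collection, averaged over the sites, 40 of the 85 genes fell and 2 rose, whereas of all leaf genes 5.14% fell, 4.61% rose and 9.74% were called. Of 58 tested that pass without those libraries, 26 fell and 2 rose. The median change was −1.03 over the 85 genes and 0.15 over all leaf genes, the latter moving to 0.03 with median scaling. The first collection includes the Hokkaido June leaves, which stood apart from the other leaves. At Hokkaido the number of the selected genes above 1 TPM went from 89 and 155 to 43 and 61. At Tsukuba it went from 56 and 60 to 39 and 43, and at Fukuoka from 49 and 50 to 41 and 46. The fall in this number was thus largest at Hokkaido, and the change was not tested for each site alone. CYE_r3.1SPE7_g014810.1 fell at Hokkaido from 2342 and 1402 TPM to 56.4 and 8.35, at Fukuoka from 28.7 and 69.4 to 3.43 and 7.57, and at Tsukuba from 56.6 and 53.5 to 0.359 and 3.52 (−4.56 ± 0.45, adjusted p = 3.1e-06). CYE_r3.1SPA6_g002090.1 fell by 3.78 ± 0.43 (adjusted p = 1.1e-05), from 712 and 129 TPM at Hokkaido and 2.49 to 5.96 elsewhere to at most 3.36. All 6 trees were lower in the last collection for both genes, a condition for being named.

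The IDs carry the letters SPA or SPE and a digit, which the sources used here do not explain. Among the 200 there were 112 with SPA (56.0%, against 52.1% of bud genes) and 88 with SPE. The digit 7 occurred in 30 (15.0%, against 7.09% of bud genes). Profiles of 34 pairs of the genes correlated at r of at least 0.99 over the 66 buds, a description over libraries that share season and trees, and 26 genes had such a partner with the other letters. Of the 42 genes higher at Hokkaido in April 19 were in such a pair, of the 139 not called 22, and of the 19 higher at Tsukuba none. Genes near 0 in most buds can reach such an r through a few libraries. CYE_r3.1SPE4_g001280.1 and CYE_r3.1SPA8_g002350.1 had r = 0.999 but differed by up to 2.80 on the log2 scale. The class counts were not compared with other genes of like profile. The most alike were CYE_r3.1SPA3_g021810.1 and CYE_r3.1SPA0_g097760.1, which differed by at most 0.0031 on the log2 scale in all 90 libraries.

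In 4 pairs, 8 genes in all, the levels agreed within 0.1 on the log2 scale in every library. How the reads were shared between the IDs of a pair is uncertain, and each pair may be 1 measurement counted for 2 IDs. Whether the IDs of a pair are copies of each other was not tested. A further 7 pairs, 14 genes, had neighbouring ID numbers, with r from 0.808 to 0.968 over the buds.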

How the data were processed

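RNA from whole buds and leaves was sequenced as paired-end libraries, and bud and leaf RNA was extracted by different methods, per the labels' protocols. The authors deposited TPM values per gene ID for 90 libraries; per the submitters' processing notes, StringTie 1.3.5, STAR 1.5.2 and fastp 0.20.0 were used, with no role stated. Genome build and annotation were not given in the sources used here. Every library sums to 1000000 TPM, so depth is unknown, no counting error can be given, and a rise of abundant genes lowers the others.

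Values were taken as log2(TPM + 1), a scale that understates changes of low genes. Genes with mean TPM of at least 1 over the fitted libraries were tested with limma 3.58.1 in R 4.3.3: 40161 genes in a fit of all 66 bud libraries with 33 groups of site and date, and 35534 genes in a fit of 24 leaf libraries with 12 groups. Empirical Bayes variances had no trend or robust setting, tests were two-sided, and p-values were adjusted by Benjamini-Hochberg over all genes tested. The fits were tested on simulated data. The 2 trees of a group are the replicates, so p-values measure the spread between these trees, shared over all groups of a fit.

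The 200 genes, the comparisons and their order were chosen with earlier results of these data known. Named genes are the 2 largest rises, those at the limit, and per comparison up to 2 called genes in each direction with the largest change, mean TPM of at least 5 over the libraries compared and the same sign in every pair of trees. The labels show the same trees at each date. Differences of 1 tree from the other correlated between dates with a median r of 0.0433 at Fukuoka, 0.0533 at Tsukuba and 0.0892 at Hokkaido in buds, and 0.260, 0.197 and 0.203 in leaves. Lists of gene functions could not be used, as no table pairing IDs with names was used here, and no sequence was read. Alternatives were the pseudocount, the filter, 2 scalings, the variance settings, a tree block, leaving out each tree, and 1 series of library numbers; the filter without the libraries compared was added after the values were seen.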

Additional observations from a re-analysis of the deposited data

Results flagged for a closer look

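Tsukuba replicate 2 stood above the other 5 January bud libraries in the summed level of the 200 genes, with 891 TPM. It is 1 of 11 month groups tested for a library far from the rest, and chance marks about 1 in 20. In this library CYE_r3.1SPA5_g015000.1 was at 373 TPM, against 0.123 to 33.7 in the other January buds.

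The change from March to April differed between Tsukuba and Hokkaido in 70 of the 200 genes by the interaction test in limma, 33 with the more upward change at Tsukuba and 37 at Hokkaido. Of all bud genes 3.28% were called, 0.966% and 2.31% in these directions, and of the 160 genes that pass the filter without the libraries compared 40 were called. The count of 70 is affected by the selection, which a gene high at only 1 April site can enter.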

How the results depend on the processing

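With a filter at a mean of 5 TPM fewer of the genes were tested and fewer called: 24 in April, 64 in March for Fukuoka, 32 in March between the northern sites, 26 for the March to April change, 58 in October, 49 in June buds, 21 in June leaves and 23 from the first to the last leaves, and 94 of the 200 were chosen again. A pseudocount of 0.1 gave 33 calls in March between the northern sites, 30 in February, 45 for the March to April change and 44 in June buds. The near-even March split between the northern sites (34 against 33) turned the other way with no filter (65 calls), median scaling (68), quantile normalization (66) and 1 series of library numbers (12). That series gave 24 calls for the March to April change, quantile normalization 9 in February, and no filter 83 in June leaves. Counting only genes that pass without the libraries compared gave 36 in April, 40 for the March to April change and 25 in June leaves. The cause was not tested in the other cases.

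Leaving out each tree gave 45 to 58 calls in April, 83 to 129 in March for Fukuoka, 32 to 84 in March between the northern sites (32 without Tsukuba replicate 1, 40 without Tsukuba replicate 2, 35 without Hokkaido replicate 2), 2 to 20 in February (10 and 2 without Fukuoka replicates 1 and 2, 7 without Tsukuba replicate 2), 43 to 68 for the March to April change, 90 to 109 in October, 41 to 87 in June buds, 23 to 59 in June leaves (34 without Fukuoka replicate 1) and 31 to 57 over the leaf season. The rule chose 139 to 166 of the 200 again without 1 tree. A replicate block for the tree gave 72 calls in March between the northern sites, 34 against 38. It moved no other count by over 1.5 times and changed no call of a named gene. Of the named genes 25 values lost a call under an alternative and none reversed. Leaving out the 5 genes highest in April lowered the summed April level to 10117 TPM. TPM gives no depth, so what low values can show is not known.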
